A study of Mus musculus with 36 samples.

Results

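The RNAs described here are long noncoding RNAs of 2 labels that bone marrow-derived macrophages (BMDMs) express at a measurable level. They are the rows of the gene count table annotated as lincRNA or antisense, not on chromosome X, Y or MT, whose mean level over the 12 WT libraries was at least 2 CPM (a gene's count over the total count of its library, times 1e6). This rule found 159 genes (97 lincRNA and 62 antisense) among 7695 autosomal genes of these types and 54532 genes in all, and the label lncRNA does not occur in the table. Autosomal genes with other labels that reached 2 CPM were left out, among them 56 labelled processed_transcript, 43 TEC and 12 bidirectional_promoter_lncRNA. The 159 are therefore not a full count of expressed long noncoding RNAs. The WT levels chose the members, so their levels are descriptions. The gene just inside the limit, AC163032.1, had 2.004 CPM and the gene just outside it, Gm37696, had 1.99 CPM. BMDMs were grown for 7 days with MCSF from the marrow of female C57BL/6 mice of 13 to 17 weeks that carried floxed alleles of Bmal1, the gene of the circadian transcription factor BMAL1. KO cells (6 replicates) also carried Cre recombinase under the LysM promoter, which acts in myeloid cells and need not delete the gene in each of them, and WT cells (3 replicates) came from flox/flox littermates. The 4 treatments, each of 6 h and given to both genotypes, were vehicle (DMSO), 100 µM of the core circadian modulator CCM (a small molecule that binds BMAL1), 100 nM of lipopolysaccharide in DMSO (LPS, a component of the outer membrane of Gram-negative bacteria), and LPS with CCM, which made 36 libraries.

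Long noncoding RNAs are transcribed, capped and usually spliced like messenger RNAs but are not known to encode a conserved protein. Some stay at the locus that made them and act on neighbouring genes, some build nuclear bodies, and some are precursors of microRNAs or of small nucleolar RNAs. In macrophages, LPS is sensed by Toll-like receptor signalling that activates NF-kB and, through type I interferon, a further round of transcription, and several long noncoding RNAs are known among its products. The BMAL1-CLOCK heterodimer binds the DNA element CACGTG, called an E-box.

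MicroRNA hosts come first, because their mature products are short enough to be read whole. Mir155hg, Mir142hg and Mir17hg passed the rule. Their mature microRNAs, from RefSeq on the mouse build GRCm38.p6, are printed below with the seed (bases 2 to 8, which pair with targets) in capitals.
mmu-miR-155-5p: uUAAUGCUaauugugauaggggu
mmu-miR-155-3p: cUCCUACCuguuagcauuaac
mmu-miR-142a-5p: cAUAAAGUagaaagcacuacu
mmu-miR-142a-3p: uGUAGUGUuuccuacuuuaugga
mmu-miR-17-5p: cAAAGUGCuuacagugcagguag
mmu-miR-20a-5p: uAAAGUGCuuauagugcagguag
mmu-miR-19a-3p: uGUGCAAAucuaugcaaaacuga
mmu-miR-19b-3p: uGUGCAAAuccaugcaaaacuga
The miR-155 arms lie at chr16:84714143-84714165 and chr16:84714182-84714202 on the plus strand, within an exon of Mir155hg. The seeds of miR-155 and miR-142a occur in no other arm of these 3 hosts, whereas miR-17-5p and miR-20a-5p share the seed AAAGUGC and miR-19a-3p and miR-19b-3p share GUGCAAA. The libraries held RNA with poly(A) tails, so the host transcripts were measured and the mature microRNAs were not.

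Promoters of 300 bases (250 before and 50 after the start) are shown for 3 members that both LPS and CCM moved. They were read from RefSeq (GRCm38.p6) and hold letters of a searched motif, which are in capitals.
AW112010: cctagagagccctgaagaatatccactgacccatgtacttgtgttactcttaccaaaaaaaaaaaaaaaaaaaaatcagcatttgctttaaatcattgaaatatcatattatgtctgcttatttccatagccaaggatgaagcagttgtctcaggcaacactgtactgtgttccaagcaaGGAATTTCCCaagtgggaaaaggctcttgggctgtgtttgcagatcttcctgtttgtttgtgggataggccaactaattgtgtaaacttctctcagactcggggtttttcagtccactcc
Ptgs2os2: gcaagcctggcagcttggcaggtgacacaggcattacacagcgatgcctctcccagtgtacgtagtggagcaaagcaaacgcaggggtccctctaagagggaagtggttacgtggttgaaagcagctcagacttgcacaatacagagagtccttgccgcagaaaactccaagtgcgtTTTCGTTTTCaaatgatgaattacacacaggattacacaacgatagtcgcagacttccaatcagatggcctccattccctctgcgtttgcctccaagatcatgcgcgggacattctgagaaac
9330175E14Rik: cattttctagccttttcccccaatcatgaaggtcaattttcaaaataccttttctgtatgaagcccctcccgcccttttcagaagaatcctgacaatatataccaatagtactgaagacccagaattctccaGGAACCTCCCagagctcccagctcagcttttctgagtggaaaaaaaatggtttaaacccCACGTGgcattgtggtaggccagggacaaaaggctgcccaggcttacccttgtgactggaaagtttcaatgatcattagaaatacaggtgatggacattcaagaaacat
The promoters lie on the minus strand at chr19:11050517-11050816, chr1:150164899-150165198 and chr8:94435054-94435353. The motifs searched on both strands were the NF-kB site and the interferon response element (each with 4 fixed bases on either side of 2 free ones, as in the capitals), TGANTCA (AP-1) and CACGTG (E-box). In capitals, AW112010 holds an NF-kB match, Ptgs2os2 an interferon element and 9330175E14Rik an NF-kB match followed by an E-box. RefSeq promoters were found by symbol for 79 of the 159 members, and for 46 of them the RefSeq start lay within 100 bases of the table's gene start. Among these 46, the NF-kB letters were in 3 promoters (6.52%), the interferon letters in 3 (6.52%), the AP-1 letters in 4 (8.70%) and the E-box letters in 7 (15.2%). Of the 27025 promoters of all genes, 1.43, 3.49, 7.93 and 7.24% held these motifs, in that order. The NF-kB and interferon matches were all among the 14 of these members that rose with LPS in WT cells. A match is a description of letters and not a sign of binding.

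Most of these RNAs are scarce and lie close to other genes. Over the WT libraries, 105 members had a mean of 2 to 5 CPM, 30 had at least 10 CPM and 5 at least 100 CPM, with a median of 3.81 CPM. Together the members took 0.205 to 0.273% of a library's counts, over all 36 libraries of both genotypes. Per kilobase of length, the scale on which genes can be compared, and as a mean over the WT libraries of all 4 treatments, AW112010 came first at 349 CPM per kb, almost all of it from the libraries with LPS, ahead of Malat1 at 41.5, 2900097C17Rik at 39.7 and Gm10076 at 31.2 CPM per kb. Gm26917, 4930430E12Rik, 1810058I24Rik and AU020206 followed at 30.9, 28.7, 27.0 and 24.8 CPM per kb, while Neat1, a long RNA, was the 12th of the order at 13.6 CPM per kb. The median length was 2516 bases (269 to 93092), and 26 members had 1 exon. The intervals of 109 members overlapped another annotated gene, 80 of them a protein-coding gene, and exons met coding exons in 64. Overlap was the rule for antisense members (57 of 62 with a coding gene) and less common among lincRNAs (23 of 97). Whether the counting used the strand is not stated, so the reads of an overlapping pair on opposite strands cannot be told apart. In 37 members transcription started within 2 kb of a coding gene's start on the opposite strand, whether or not the genes overlap.

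The libraries held 13469262 to 28288923 counted read pairs (median 19951421), and 139 to 159 members had at least 1 count in each. The 10 macrophage markers listed were above 1 CPM. They summed to 17189 to 20397 CPM in WT and 12177 to 24463 CPM in KO libraries. Their list includes Lyz2, the gene of LysM, whose part in the KO sums was not tested. Cd3e, which defines T cells, stayed at or under 0.557 CPM. Fibroblast markers summed to 302 to 1660 CPM and neutrophil markers to 425 to 1151 CPM. Fewer cells of a type and less RNA per cell cannot be told apart in bulk samples. Arntl (Bmal1) itself had 7.52 to 12.9 CPM in WT and 2.02 to 10.8 CPM in KO libraries, ranges that overlap. Its gene-level count also takes exons outside the floxed part and checks the deletion poorly. Between replicates the median coefficient of variation of the members was 14.2 to 15.8% in the 4 WT groups and 31.9 to 36.1% in the 4 KO groups.

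The KO libraries of replicate 6 stood apart in these RNAs under each treatment. With vehicle, 36 members were more than 2 times above and 44 less than 0.5 times the mean of the other 5 replicates. Any other replicate had at most 5 and 11. With CCM the counts for replicate 6 were 32 and 48 (others at most 4 and 11), and with LPS 30 and 41 (others at most 4 and 9). With LPS and CCM they were 22 and 45, against up to 12 (replicate 1) and 23 (replicate 5). Its mitochondrial share of counts was 0.255 to 0.449%, compared with 0.754 to 1.57% in the other 32 libraries. Among the named members on the high side, Snhg20 stood at 29.8 CPM in vehicle replicate 6 and at 6.96 to 9.42 CPM in the others, Epb41l4aos at 30.9 against 6.38 to 8.23 CPM, and Mir142hg at 19.2 against 2.74 to 5.38 CPM. On the low side, 2900097C17Rik had 102 CPM against 174 to 195 and Tug1 27.6 CPM against 55.1 to 62.9. Some scarcer members were almost absent from it, as Gm26809, with 1 count in vehicle replicate 6 against 123 to 133 in the others, and Gdap10, with 1 against 99 to 163, both picked out after their values were seen. Results in KO cells are therefore given with and without replicate 6 where it moves them.

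**Figure D1:**
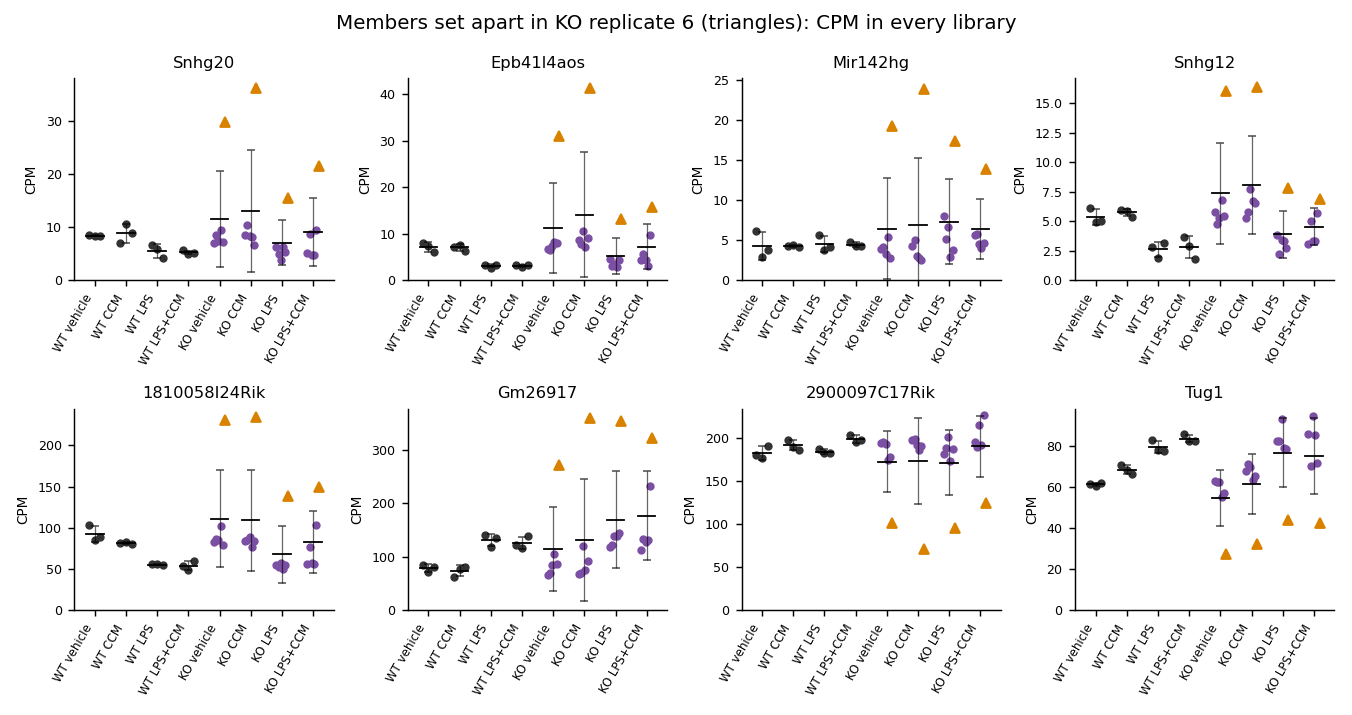
CPM of 8 members in every library of the 8 groups, on linear axes that start at 0, with KO replicate 6 as a triangle, other libraries as points, a line at the group mean and a bar of 1 SD (n = 3 WT, n = 6 KO). With vehicle, replicate 6 lies above the other KO replicates in Snhg20 (29.8 CPM), Epb41l4aos (30.9) and Mir142hg (19.2) and below them in 2900097C17Rik (102) and Tug1 (27.6).

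The first comparison asked how LPS moved these RNAs in WT macrophages. Of the 159 members, all tested, 111 were called (56 higher, 55 lower) by edgeR's quasi-likelihood test (adjusted p up to 0.05, Benjamini-Hochberg), or 69.8%, where 63.0% of all 14501 genes tested were called (30.6% higher, 32.4% lower) and 69.4% of the genes with at least 2 CPM. The share called was thus near that of other genes. The size of the change was larger among members, with a median absolute log2 fold change of 0.84 against 0.49 for genes with at least 2 CPM, and 37 members (23.3%) were called with a change of at least 2 on the log2 scale against 9.73%. The rule bears on these counts, since a member could pass it through 1 group alone. Of the 29 that reached 2 CPM only with LPS, 27 were called higher, and of the 37 that reached it only with vehicle, 31 were called lower. In the 93 that reached it in both groups, 29 were higher, 24 lower and 40 not called. Antisense members were called higher in 31 and lower in 16 cases and lincRNAs in 25 and 39. With the libraries scaled by their totals alone, the median of all genes moved by -0.41 on the log2 scale, and 39 members were called higher and 75 lower.

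**Figure D2:**
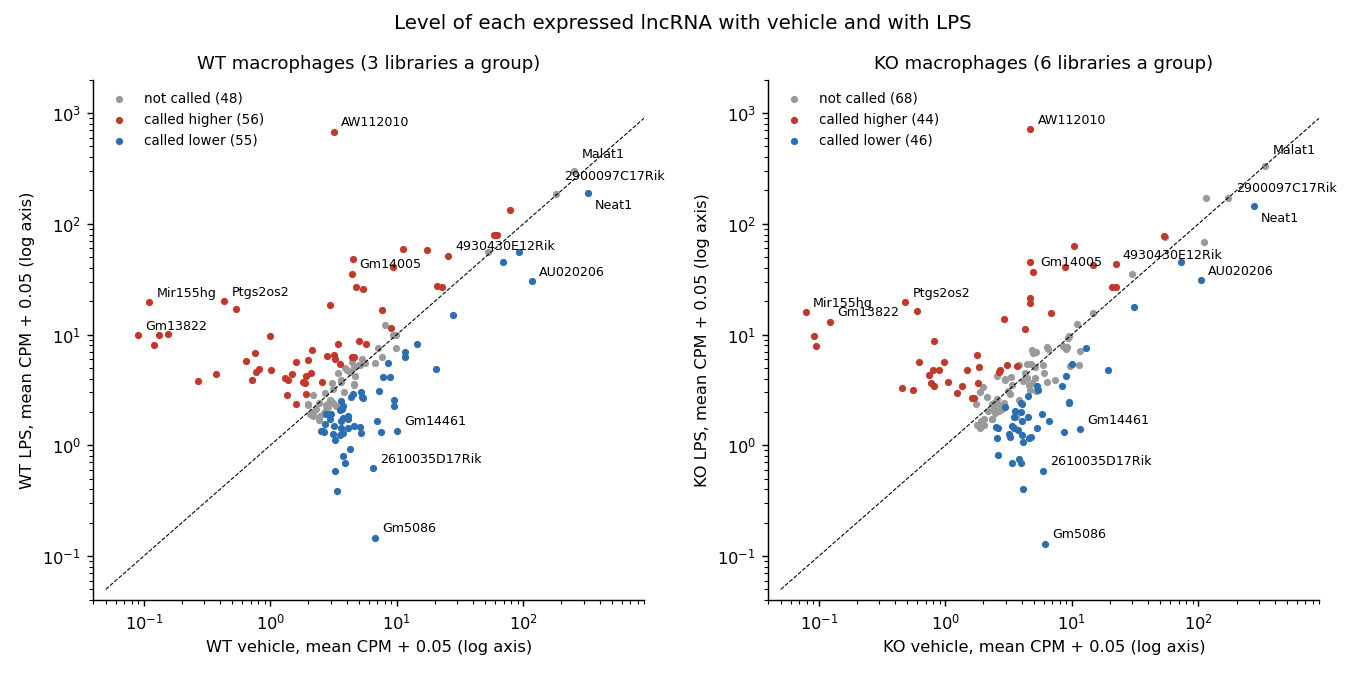
Mean CPM, plus 0.05 on log axes, of each member with vehicle (x) and with LPS (y) in WT cells (n = 3 libraries a group) and KO cells (n = 6), with called higher in red, called lower in blue and not called in grey. In WT cells 56 members were called above and 55 below the line of equal level, and in KO cells 44 and 46.

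Mir155hg, the precursor of the inflammatory microRNA miR-155, had the largest rise. Mir155hg (ENSMUSG00000097418, chromosome 16, 84703167 to 84715245, plus strand) was at 0.0759, 0.0443 and 0.061 CPM in the WT vehicle libraries (5 counts in all) and at 23.5, 19.4 and 15.5 CPM with LPS, a log2 fold change of 8.22 (SE 0.30, adjusted p = 4.8e-09). The other microRNA hosts did not pass the test. Mir142hg, host of the blood-cell microRNA miR-142, was at 6.15, 2.84 and 3.75 CPM with vehicle and 5.61, 3.78 and 4.15 CPM with LPS (log2 0.11, adjusted p = 0.75), and Mir17hg, host of the growth-related miR-17 cluster, at 2.62, 2.75 and 2.62 and 3.43, 2.56 and 2.74 CPM (log2 0.15, adjusted p = 0.55). Their groups overlapped. The list of small RNA hosts held 33 names, of which 26 were in the table and 7 passed the rule. Of the 4 hosts of small nucleolar RNAs (guides of ribosomal RNA modification) that passed it, 3 fell. Epb41l4aos went from 8.09, 7.36 and 5.98 to 3.19, 2.69 and 3.34 CPM (log2 -1.18, SE 0.18, adjusted p = 2.2e-04), Snhg12 from 6.15, 4.92 and 5.03 to 2.78, 1.91 and 3.14 CPM (log2 -1.01, SE 0.22, adjusted p = 0.0022), and Snhg20 from 8.43, 8.38 and 8.36 to 6.56, 5.91 and 4.11 CPM (log2 -0.58, SE 0.18, adjusted p = 0.015). In these 3 the LPS libraries all lay under the vehicle libraries. Snhg6 rose by 0.38 (SE 0.13, adjusted p = 0.025) with TMM scaling, but was at -0.028 with library totals alone, so that its direction depends on the scaling.

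Of 10 members listed as macrophage or innate RNAs, 5 rose, 4 fell and 1 was not called. AW112010 (ENSMUSG00000075010, chromosome 19, 11047617 to 11050566, minus strand), which overlaps no gene and can be translated into a protein of mucosal immunity, was at 2.92, 2.71 and 3.75 CPM with vehicle and at 657, 707 and 673 CPM with LPS (log2 7.77, SE 0.11, adjusted p = 1.9e-11). It had the highest CPM of all members in every WT LPS library. Ptgs2os2 (ENSMUSG00000097754, chromosome 1, 150159043 to 150164948, minus strand), also known as lincRNA-Cox2 and a regulator of inflammatory genes, went from 0.266, 0.399 and 0.488 to 18.1, 21.4 and 20.7 CPM (log2 5.69, SE 0.20, adjusted p = 3.5e-09). Gm14005, also known as Morrbid, which controls the life span of myeloid cells, went from 4.97, 3.90 and 4.15 to 37.1, 36.6 and 32.04 CPM (log2 3.05, SE 0.11, adjusted p = 4.8e-09). Both sets of groups were far apart. Gm13822, which overlaps the antiviral gene Oasl1, had 4 counts in all with vehicle and 9.10, 10.03 and 10.4 CPM with LPS (log2 7.55, SE 0.45, adjusted p = 2.2e-07), and Gm16685, across Il7, had 6 counts with vehicle and 11.1, 10.1 and 8.21 CPM with LPS (log2 6.98, SE 0.38, adjusted p = 1.1e-07). With so few vehicle counts these fold changes, and that of Mir155hg, depend on the prior count of the fit. The 4 that fell were 2610035D17Rik (log2 -3.43, SE 0.40, adjusted p = 3.5e-05), Dnmt3aos, on the strand opposite the DNA methyltransferase gene Dnmt3a (log2 -2.52, SE 0.23, adjusted p = 5.5e-06), Gm28875 (log2 -2.49, SE 0.26, adjusted p = 1.7e-05) and Gm37494 (log2 -0.80, SE 0.13, adjusted p = 3.4e-04). For 2610035D17Rik the levels were 7.52, 4.52 and 7.29 CPM with vehicle and 0.532, 0.217 and 0.966 CPM with LPS. Gm20632, on the strand opposite the histone gene Hist2h2aa2, was not called (log2 -0.19, adjusted p = 0.45).

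Among 6 nuclear or imprinted RNAs, 1 rose, 2 fell and 3 were not called. Neat1 (ENSMUSG00000092274, chromosome 19, 5824708 to 5845478, minus strand), the scaffold of nuclear paraspeckles, fell from 374, 274 and 324 to 253, 161 and 161 CPM (log2 -0.73, SE 0.17, adjusted p = 0.0038), and its groups did not overlap. Its neighbour Malat1, an RNA of nuclear speckles, was at 173, 288 and 297 CPM with vehicle and 399, 185 and 318 CPM with LPS (log2 0.28, SE 0.27, adjusted p = 0.40). The spread of Malat1 between replicates was wide, 27.4% of the mean with vehicle and 35.9% with LPS. By contrast 2900097C17Rik, the mouse counterpart of Norad, which binds Pumilio proteins, varied little, at 179.9, 176 and 191 and 188, 182 and 182 CPM (log2 0.042, SE 0.056, adjusted p = 0.54), and with library totals alone it was called lower (log2 -0.37). Tug1, at 61.2, 60.5 and 62.1 and 82.9, 77.8 and 77.5 CPM, rose by 0.40 (SE 0.058, adjusted p = 1.8e-04), with -0.0098 under library totals alone. The remaining members of this list were 1700020I14Rik, which fell (log2 -0.58, SE 0.084, adjusted p = 1.6e-04), and Kcnq1ot1, an imprinted RNA that silences neighbouring genes, which was at 2.01, 1.77 and 2.01 and 2.54, 2.13 and 2.05 CPM (adjusted p = 0.38). Gm26917, a gene on chromosome 17 whose sequence resembles ribosomal RNA, rose from 85.2, 71.6 and 79.9 to 141, 119 and 136 CPM (log2 0.77, SE 0.081, adjusted p = 1.7e-05).

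Further members of large change or high level were mostly uncharacterised RNAs. Gm5086 (ENSMUSG00000110235, chromosome 13, 97559971 to 97583996, plus strand), which overlaps no gene, fell from 7.59, 6.74 and 5.77 to 0, 0.0869 and 0.201 CPM (7 counts in all with LPS; log2 -5.87 (SE 0.41, adjusted p = 8.3e-07)). Gm13391 fell from 2.47, 3.77 and 3.78 to 0.414, 0.478 and 0.121 CPM (log2 -3.30, SE 0.41, adjusted p = 5.9e-05), and Gm14461 went from 9.72, 8.12 and 12.1 to 1.48, 1.26 and 1.17 CPM (log2 -2.92, SE 0.21, adjusted p = 8.9e-07). These RNAs lost most of their signal within 6 h. The abundant AU020206 went from 151, 102 and 94.5 to 32.9, 29.7 and 28.5 CPM (log2 -1.90, SE 0.15, adjusted p = 2.3e-06), and 1810058I24Rik, which encodes a small mitochondrial protein despite its annotation, from 104, 85.7 and 88.9 to 55.9, 55.8 and 54.5 CPM (log2 -0.71, SE 0.072, adjusted p = 1.2e-05). Log2 fold changes were -2.56 (SE 0.27) for 1600010M07Rik and -2.29 (SE 0.35) for AC125351.1, both called lower. On the rising side, Gm47242 had 9 counts with vehicle and 9.27, 11.3 and 9.62 CPM with LPS (log2 6.48, SE 0.27, adjusted p = 1.4e-08), and Gm16015 6 counts and 9.39, 7.56 and 7.25 CPM (log2 6.71, SE 0.41, adjusted p = 2.6e-07). Smaller rises were those of 4930430E12Rik (ENSMUSG00000085295, chromosome 4, 6352105 to 6357530, minus strand), from 27.7, 24.8 and 24.1 to 51.6, 52.03 and 50.9 CPM (log2 1.04, SE 0.066, adjusted p = 3.8e-07), and Brip1os (log2 0.47, SE 0.062, adjusted p = 9.0e-05).

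The same comparison was made in KO macrophages. Of 158 members tested, 90 were called (44 higher, 46 lower), or 57.0%, against 47.1% of 13648 genes (22.4% higher, 24.7% lower). As in WT cells, many calls fell on members that reached 2 CPM in 1 group alone. Of the 29 that reached it only with LPS, 25 were called higher, and of the 36 only with vehicle, 29 were called lower. In the 89 that reached it in both groups, 19 were higher, 17 lower and 53 not called. Without replicate 6, 117 members were called (55 higher, 62 lower), and without any other replicate 72 to 76. Same-numbered KO libraries deviated together (correlations 0.298 to 0.830, other pairs median 0.172), and 117 were called once the replicate number entered as a block. Of the 111 members called in WT cells, 110 were tested in KO cells, and all 110 had the sign they had in WT cells. In the full set 87 of them were called, and 105 without replicate 6. The WT and KO comparisons share no library, though the members were chosen on WT levels. The 3 members Kcnq1ot1, Gm4673 and 1300002E11Rik were called lower in KO cells only, and the difference between genotypes was not called for them. Scaling by library totals gave 32 called higher and 69 lower, with a shift of -0.38 in the median of all genes.

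The RNAs that led in WT cells were also called in KO cells. Mir155hg had 4 counts in all in the KO vehicle libraries and 12.3 to 21.002 CPM (median 15.7) with LPS (log2 8.77, SE 0.43, adjusted p = 2.8e-09). AW112010 was at 3.19 to 6.96 CPM (median 4.23) with vehicle and 590.2 to 970.0 CPM (median 668) with LPS (log2 7.28, SE 0.25, adjusted p = 1.3e-10), and Ptgs2os2 at 0.139 to 0.697 CPM (median 0.441) and 15.1 to 26.6 CPM (median 19.6) (log2 5.53, SE 0.30, adjusted p = 6.1e-09). In each the lowest LPS library lay far above the highest vehicle library. Gm5086 fell, with 5.19 to 7.36 CPM (median 6.00) and 0 to 0.192 CPM (median 0.0857) (log2 -6.12, SE 0.39, adjusted p = 2.7e-08), and so did Neat1, with 154 to 421 CPM (median 273) and 87.2 to 219 CPM (median 146) (log2 -0.92, SE 0.28, adjusted p = 0.016). The Neat1 groups overlapped. Where replicate 6 was far from the rest, calls turned on it. Tug1 was at 0.49 (SE 0.19, adjusted p = 0.055) with all 6 replicates and at 0.46 (SE 0.066, adjusted p = 2.8e-05) without replicate 6, and 1810058I24Rik at -0.70 (SE 0.36, adjusted p = 0.13) and -0.70 (SE 0.063, adjusted p = 3.2e-07). Epb41l4aos was at -1.10 (SE 0.52, adjusted p = 0.10) with and -1.01 (SE 0.14, adjusted p = 3.1e-05) without it, Snhg12 at -0.91 (SE 0.39, adjusted p = 0.073) and -0.86 (SE 0.16, adjusted p = 3.1e-04), Snhg20 at -0.71 (SE 0.46, adjusted p = 0.23) and -0.57 (SE 0.14, adjusted p = 0.0024), and Gm26917 at 0.58 (SE 0.41, adjusted p = 0.28) and 0.69 (SE 0.11, adjusted p = 6.0e-05). All 6 gained a call without it.

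**Figure D3:**
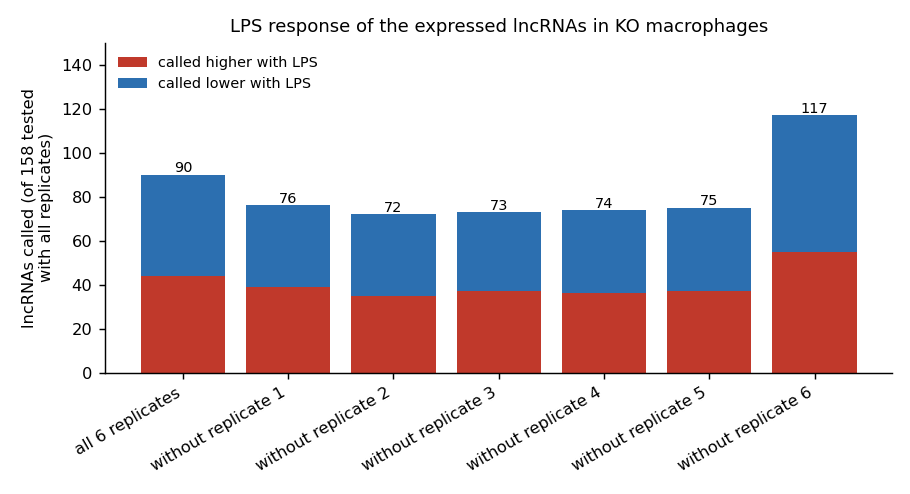
Number of members called higher (red) and lower (blue) for LPS in KO cells with all replicates and with each replicate left out of both groups. The total is 90 with all 6 replicates, 72 to 76 without any of replicates 1 to 5, and 117 without replicate 6.

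Cell type markers moved with LPS as well. The summed level of 6 T cell markers was mostly that of Cd4. It was 24.2 to 28.1 CPM in WT vehicle and 12.1 to 17.2 CPM in WT LPS libraries. The sum of 5 dendritic cell markers, 2 of them above 1 CPM, was 2.88 to 4.21 and 9.69 to 11.5 CPM. In KO cells the T cell sum was 18.7 to 33.5 CPM with vehicle and 10.01 to 18.5 CPM with LPS, and the dendritic cell sum 2.36 to 5.03 and 8.69 to 14.2 CPM. The summed macrophage markers overlapped between these groups in each genotype. The part of these lists in the changes of the members was not tested.

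Many members lie beside a coding gene that moved the same way with LPS. Over 136 members with a tested nearest coding gene, 97 pairs (71.3%) had the same sign in WT cells, and Spearman's rho between the log2 fold changes was 0.57. The pairs share libraries, and overlapping pairs may share reads, so the correlations are descriptions across genes. For 36 pairs on opposite strands with starts within 2 kb, called divergent here, the same sign was seen in 28 (77.8%) with a rho of 0.73. Such pairs can overlap and share reads, as Gm13822 and Oasl1 may. In 49 other pairs the member overlaps a coding gene, which need not be the paired one, and 35 (71.4%) had the same sign (rho 0.58). In 38 pairs whose member overlaps no coding gene, with starts under 50 kb apart, 24 (63.2%) had the same sign (rho 0.37). At 50 kb or more, 10 of 13 pairs (76.9%) had the same sign (rho 0.49). Whether the share or rho depends on distance was not tested, and no share for unrelated genes was taken as a background. In KO cells 103 of 134 pairs (76.9%) had the same sign, with a rho of 0.62.

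**Figure D4:**
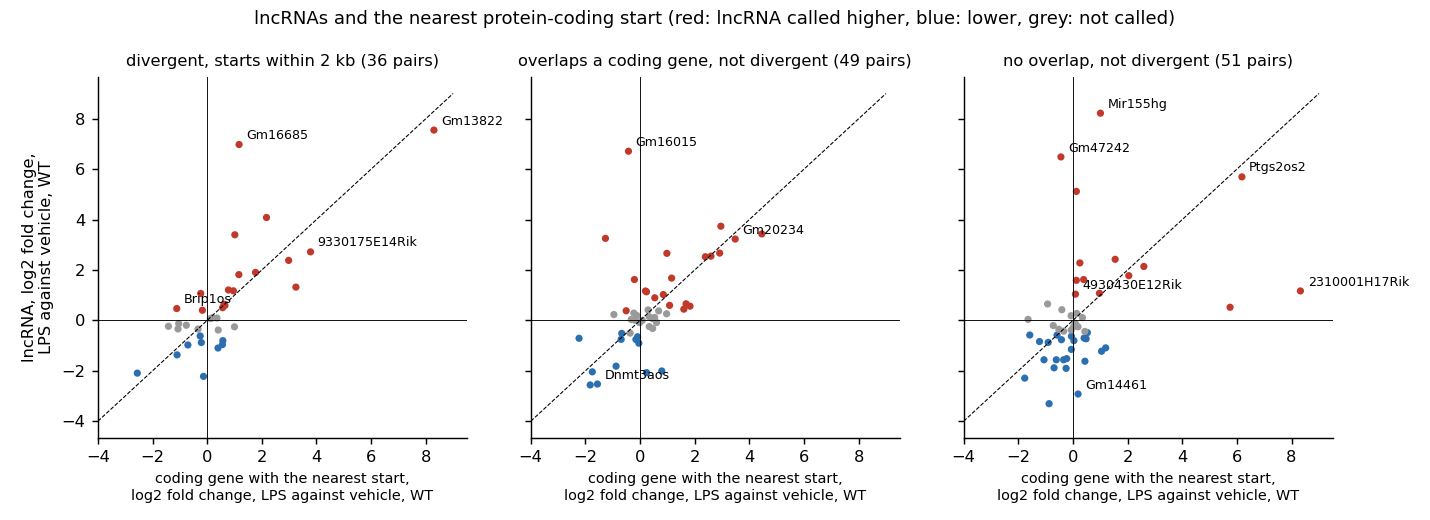
Log2 fold change with LPS in WT cells of the coding gene with the nearest start (x) and of the member (y), in 36 divergent pairs, 49 other pairs in which the member overlaps a coding gene and 51 pairs without overlap, coloured red where the member was called higher, blue lower and grey not called. The signs were equal in 28 divergent pairs and in 35 of the pairs whose member overlaps a coding gene, which need not be the paired one. Divergent pairs lie on opposite strands with starts within 2 kb and can overlap. The dashed line marks equal change.

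Single loci show the range. Gm13822 starts 37 bases from Oasl1, on the opposite strand, and Oasl1 rose by 8.30 on the log2 scale (SE 0.13) where Gm13822 rose by 7.55. The start of 9330175E14Rik lies 747 bases from that of Nlrc5, an activator of MHC class I genes, with log2 fold changes of 2.72 and 3.78. Gm16685 and Il7, 1055 bases apart, rose by 6.98 and 1.17, and Gm16015, which overlaps Cd38, a gene that encodes an NAD-consuming enzyme, rose by 6.71 where Cd38 rose by 6.59. These 4 overlap their partner on the opposite strand. Ptgs2os2 does not overlap Ptgs2, which encodes the prostaglandin enzyme COX-2, and starts 64917 bases away, and Ptgs2 rose by 6.18 (SE 0.31). Opposite signs also occurred. Brip1os rose by 0.47 while the helicase gene Brip1, 177 bases away, had a log2 fold change of -1.11 (SE 0.20), although Brip1os overlaps Med13, which rose by 1.11. Gm47242 rose by 6.48 beside Fam111a at -0.44.

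The next comparison asked what CCM did under LPS. In WT cells 9 of 157 members tested were called (1 higher, 8 lower), or 5.73%, where 11.9% of 13579 genes tested were (4.15% higher, 7.78% lower) and 13.8% of genes with at least 2 CPM. All 9 had also been called for LPS in WT cells, a comparison that shares the WT LPS libraries. The 8 lowered members were among those LPS raised and the 1 raised member, Tmem250-ps, among those LPS lowered. Same-numbered libraries deviated together here, and 20 members were called once the replicate number entered as a block (7 higher, 13 lower). Scaling by library totals gave 6 higher and 7 lower. Without WT LPS replicate 2, or without WT LPS+CCM replicate 2, 4 members were called.

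The clearest calls were those of 4930430E12Rik and AW112010, both lower with CCM. Under LPS, 4930430E12Rik was at 51.6, 52.03 and 50.9 CPM without and 33.5, 33.4 and 31.4 CPM with CCM, a log2 fold change of -0.65 (SE 0.056, adjusted p = 8.1e-05), so that its mean was 63.6% of the level without CCM. AW112010 was at 657, 707 and 673 CPM without and 507, 475 and 513 CPM with CCM (log2 -0.44, SE 0.047, adjusted p = 2.5e-04, 73.4%). In both the groups were separate by more than the range within each. Mir155hg, whose microRNA opens the sequences above, was at 23.5, 19.4 and 15.5 and 14.8, 10.7 and 9.28 CPM (log2 -0.74, SE 0.18, adjusted p = 0.028, 59.6%). Ptgs2os2 was at 18.1, 21.4 and 20.7 and 14.6, 14.2 and 15.2 CPM (log2 -0.45, SE 0.086, adjusted p = 0.0082), and its neighbour Ptgs2 fell by 1.32 on the log2 scale. The remaining lowered members were 9330175E14Rik, at 5.73, 4.86 and 4.03 and 2.72, 2.46 and 2.87 CPM (log2 -0.84, SE 0.19, adjusted p = 0.019), Gm47242, at 9.27, 11.3 and 9.62 and 6.45, 7.12 and 4.95 CPM (log2 -0.70, SE 0.16, adjusted p = 0.017), and Gm14005 (Morrbid), at 37.1, 36.6 and 32.04 and 29.02, 28.6 and 24.3 CPM (log2 -0.36, SE 0.087, adjusted p = 0.024). A530040E14Rik, on the strand opposite A530032D15Rik and C130026I21Rik, was also lower, at 54.8, 41.96 and 46.6 and 36.2, 34.1 and 37.2 CPM (log2 -0.40, SE 0.094, adjusted p = 0.019), and was chosen for naming after its values were seen. Tmem250-ps, a pseudogene transcript, rose from 13.5, 15.2 and 16.02 to 17.8, 20.5 and 20.9 CPM (log2 0.41, SE 0.095, adjusted p = 0.020).

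**Figure D5:**
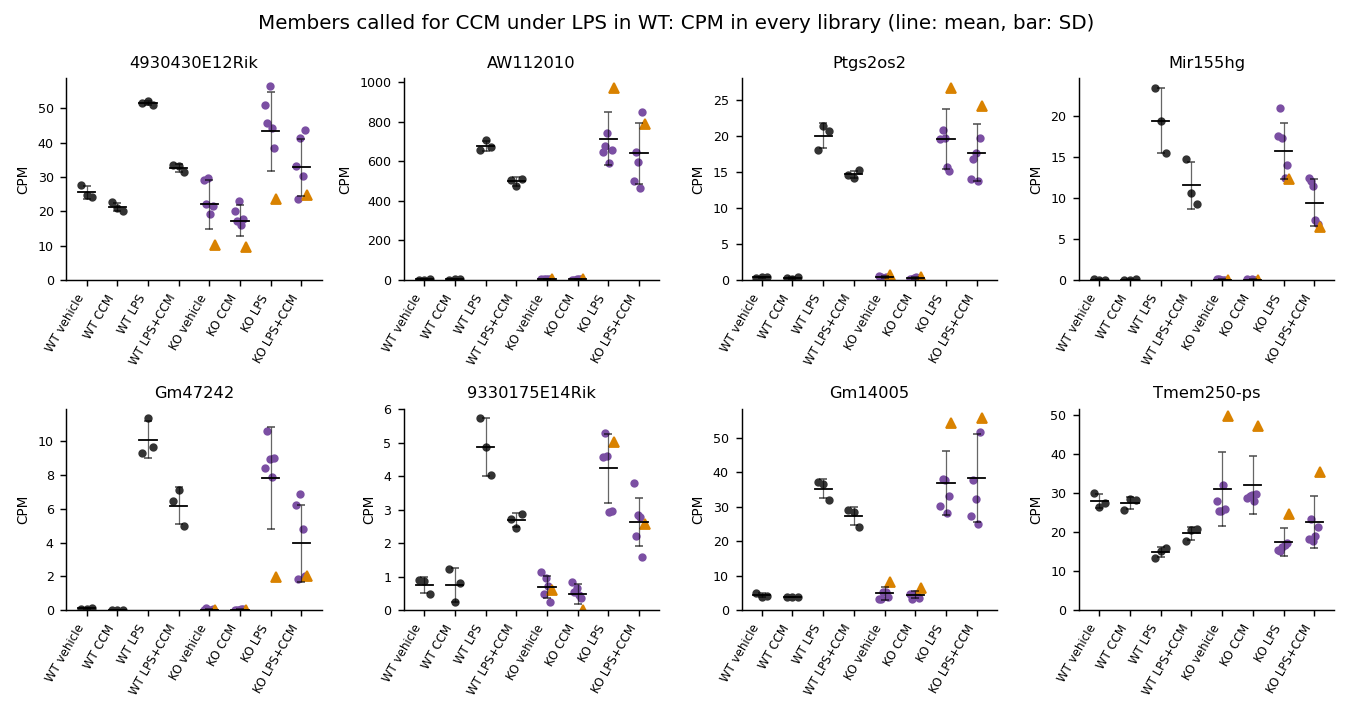
CPM in every library of the 8 groups, on linear axes from 0, for 8 of the 9 members called for CCM under LPS in WT cells, with a line at the mean, a bar of 1 SD (n = 3 WT, n = 6 KO) and KO replicate 6 as a triangle. In WT cells the LPS+CCM points of 4930430E12Rik (31.4 to 33.5 CPM) lie between those of LPS (50.9 to 52.0 CPM) and vehicle (24.1 to 27.7 CPM).

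Sums of some cell type markers moved with CCM too. Under LPS in WT cells the dendritic cell sum was 9.69 to 11.5 CPM without and 6.44 to 8.81 CPM with CCM. Of the 5 markers in this sum, 2 were above 1 CPM. The macrophage sum was 19363 to 19985 CPM without and 20015 to 20325 CPM with CCM, whereas the neutrophil sums overlapped. Their part in the changes of the members was not tested.

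These calls differed in how far they held. Over 12 alternatives, AW112010, 4930430E12Rik and Ptgs2os2 were called in 11, A530040E14Rik and Gm47242 in 10, 9330175E14Rik in 8, Tmem250-ps and Mir155hg in 7 and Gm14005 in 6. The fit of all 36 libraries, which pools the spread of WT and KO libraries, called none of the 9. Among the members that the block added, Neat1 was higher with CCM (0.37, adjusted p = 1.6e-05), with 291, 211 and 229 CPM against 253, 161 and 161 CPM with LPS alone. It was higher in 3 of 3 same-numbered pairs, and without the block its log2 fold change was 0.36 (SE 0.17, adjusted p = 0.23). The block also added 1700020I14Rik (0.24), 2900097C17Rik (0.12) and Brip1os (-0.13), and 7 members outside the rule for naming.

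More widely, the sign of the CCM value was mostly opposite to that of LPS among members that LPS raised. The members that LPS lowered were nearer an even split. LPS calls from KO cells were used to sort the members, since they share no library with the WT comparison. Of the 44 that LPS raised in KO cells, 32 had a log2 fold change below 0 with CCM in WT cells (median -0.13), and of the 44 lowered ones tested, 19 (median 0.16). Over all genes with at least 2 CPM the same sorting gave 73.1% of 2674 and 23.6% of 2784 below 0, and whether the members differ from other genes in this was not tested.

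In KO macrophages no member was called for CCM under LPS, of 155 tested, where 0.112% of 13386 genes were. At an unadjusted p under 0.05 there were 11 members (against 7.99% of genes), and DESeq2 called 1, Mir155hg. Without replicate 6 no member was called either. With the replicate number as a block, Mir155hg (-0.79, adjusted p = 0.0032), Neat1 (0.44, adjusted p = 0.010), Gm17586 and Bvht were called. Same-numbered libraries did not deviate together in every pair here (correlations -0.100 to 0.810), so the block is only an alternative. Mir155hg was at 12.3 to 21.002 CPM (median 15.7) without and 6.46 to 12.4 CPM (median 9.44) with CCM (log2 -0.77, SE 0.21, adjusted p = 0.21), 59.9% of the level without CCM on the means. It was lower in 6 of 6 same-numbered pairs. For 4930430E12Rik the values were 23.6 to 56.4 CPM (median 44.9) and 23.5 to 43.6 CPM (median 31.8) (log2 -0.43, SE 0.21, adjusted p = 0.66), and for AW112010 590.2 to 970.0 CPM (median 668) and 464 to 847 CPM (median 621) (log2 -0.19, SE 0.18, adjusted p = 0.85). Of the 9 members called in WT cells, 8 had the same sign in KO cells, and Gm14005 was at 0.019. The difference of the CCM effect between genotypes was not tested, and KO replicates varied more. A call in one genotype alone therefore does not show a difference between them.

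Without LPS, no member was called for CCM in either genotype by the main fits, which held no replicate block. In WT cells 0 of 151 members tested were called, against 0.057% of 14024 genes, with 13 members and 1404 of 14024 genes at an unadjusted p under 0.05, among the members 4930430E12Rik (log2 -0.25, SE 0.079, adjusted p = 0.32) and Dnmt3aos (log2 -0.53, SE 0.20, adjusted p = 0.43). DESeq2 called 0 too. In KO cells 0 of 151 were called, with 4 (2.41% of genes) at an unadjusted p under 0.05 and 0.0% of 13799 genes called, and DESeq2 called 0. Without replicate 6, 1 member was called. Same-numbered KO libraries deviated together (correlations 0.337 to 0.844, other pairs median 0.221), and with the replicate block 2 members were called. These were 4930430E12Rik, lower with CCM (-0.34, adjusted p = 0.020), and Gm20658, higher (0.73, adjusted p = 0.0095). In KO cells 4930430E12Rik was at 10.3 to 29.8 CPM (median 21.8) with vehicle and 9.54 to 22.9 CPM (median 17.5) with CCM, and in WT cells at 27.7, 24.8 and 24.1 and 22.7, 20.9 and 20.2 CPM.

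The LPS by CCM interaction in the 12 WT libraries asked whether CCM acted differently with LPS. It was called for 1 of 159 members (0.629%), against 2.09% of 14747 genes, 1.62% of them lower, with 12 members at an unadjusted p under 0.05. The 1 member was 4930430E12Rik. Its CCM effect was -0.25 without and -0.65 with LPS, and the interaction was -0.41 (SE 0.093, adjusted p = 0.038). With library totals alone it was not called, and the 1 call was Tmem250-ps (0.50, adjusted p = 0.043). For 4930430E12Rik the call was kept in 5 of 18 alternatives, over which the value ranged from -0.46 to -0.31 and the adjusted p from 0.0055 to 0.99993.

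Between KO and WT cells no member passed the threshold. With vehicle, 0 of 153 members were called, with 0.0% of 14385 genes, and with LPS 0 of 157, with 0.0% of 13794 genes. At an unadjusted p under 0.05, with 0.820% of genes for vehicle and 0.761% for LPS, there were 5 members with vehicle (Gm42047, Gm26797, AI480526, AW112010 and 1700058P15Rik) and 3 with LPS (Kcnq1ot1, Gm26947 and Gm15601), and DESeq2 called 0 in both, as did the fits without replicate 6. Gm42047 had a mean of 29.5 CPM in KO and 52.6 CPM in WT vehicle libraries (log2 -0.79, SE 0.33, adjusted p = 1.0). AW112010 was at 3.19 to 6.96 CPM (median 4.23) in KO and 2.92, 2.71 and 3.75 CPM in WT vehicle libraries, and the groups overlapped. The median standard error of a member's log2 fold change was 0.31 with vehicle and 0.30 with LPS. Values well above that size also went uncalled, up to 1.27 with vehicle and 0.78 with LPS. The lack of calls therefore does not exclude true differences larger than the standard error. The genotype by LPS interaction was called for 0 of 159 members and 0.0% of 15093 genes, with 2 members and 0.742% of genes at an unadjusted p under 0.05 and 0 calls by DESeq2. They were 1700058P15Rik (log2 -1.59, SE 0.55) and Kcnq1ot1 (log2 -1.02, SE 0.30). Kcnq1ot1 was at 2.08 to 2.97 CPM (median 2.45) with vehicle and 1.04 to 1.86 CPM (median 1.44) with LPS in KO cells, and at 2.01, 1.77 and 2.01 and 2.54, 2.13 and 2.05 CPM in WT cells.

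Finally, coding genes with the most similar profile over the 12 WT libraries were found by Pearson's r of log2 CPM for 5 members. For Mir155hg these were the antiviral helicase gene Ddx60, Slfn5 and Icosl (r of 0.998 each). AW112010 was most like Clec4e, Jak2 and Ms4a6d (r of 0.9994 to 0.9996), and Gm14005 like M6pr, Tnf and Stat5a (r of 0.999). Vehicle and LPS libraries lie far apart in all these profiles, which sets most of the r. For 4930430E12Rik, Stx7 (r = 0.985), Nub1 (0.983) and Phc2 (0.983) came first, with Nub1 at means of 62.6, 137 and 95.6 CPM with vehicle, LPS and LPS with CCM. Neat1 was most like Lrpprc (r = 0.971), Fam160a2 (0.956) and Cyb5rl (0.945), and Cyb5rl had means of 7.24, 2.16 and 3.70 CPM in the same groups.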

How the data were processed

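RNA was measured in 36 BMDM libraries of 8 groups. Per the labels, the authors trimmed reads with fastp, aligned read pairs to mm10 with HISAT2 2.0.5 and counted them per gene with featureCounts 1.5.0-p3, and they deposited raw counts. The strand setting is not given in the sources used here. The study tested with DESeq2. The mean CPM of the rule used library totals, whereas printed levels used TMM factors over all 36 libraries. Each of 10 comparisons was fitted on its own groups with edgeR 4.0.16 (R 4.3.3, filterByExpr, TMM, quasi-likelihood F test) and Benjamini-Hochberg adjustment over all genes tested, with a threshold of 0.05. The standard error of a log2 fold change was its size over the root of F. The fit was checked on simulated counts. Overlaps used the table's coordinates and exons of GENCODE M21.

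Named members were the 10 with the highest WT mean CPM, up to 6 called members per direction with the largest change in a comparison (3 for the interactions; groups not overlapping in WT cells, or the same sign in at least 5 of 6 KO pairs), and all members of 4 lists (small RNA hosts, nuclear and imprinted RNAs, macrophage and innate RNAs, ribosomal-RNA-like loci). Members outside this rule are named where a count of 5 or fewer fell on them, after their values were seen. The members and lists were chosen with earlier results of these data known. Nothing in the labels says that replicates came from separate animals. The paper states that the mice were female, with n = 3 for WT and n = 6 for KO. It calls the replicates of its phagocytosis genes biological. It does not say that each replicate was a separate animal, so p-values measure the spread between these libraries. No replicate pair agreed within sampling noise. Libraries of the same replicate number deviated together in every pair for LPS in KO cells (correlations 0.298 to 0.830, other pairs median 0.172). So they did for CCM under LPS in WT cells (0.151 to 0.360, other pairs -0.132) and CCM in unstimulated KO cells (0.337 to 0.844, other pairs 0.221). There the number was taken as a pairing in the replicate block, but the main counts come from fits without the block. Same-number correlations were also positive for LPS in WT cells (0.047 to 0.173) and CCM in unstimulated WT cells (0.051 to 0.466). These were not taken as paired. The part of KO replicate 6 in the correlations was not tested. Alternatives were RLE size factors, library totals, no count filter, DESeq2 1.42.0, 1 fit of all libraries, the replicate block and leaving out replicates.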

Additional observations from a re-analysis of the deposited data

Results flagged for a closer look

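A sample was marked where its gap to the nearest of the other 5, over the group's range, exceeded Dixon's limit of 0.625, in the 4 KO groups of the 37 named members. Chance marks about 1 in 20 groups, and 49 of 148 were marked, 47 of them by KO replicate 6 (37 high, 10 low). The part of that library's quality or cells in this was not tested.

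Replicate 6 was highest in these members. Gm26917 was at 272 CPM with vehicle, 359.6 CPM with CCM and 354 CPM with LPS. AU020206 was at 48.4 CPM with LPS. 1810058I24Rik was at 231 CPM with vehicle, 235 CPM with CCM and 138 CPM with LPS. Gm13822 was at 0.905 CPM with CCM and 30.1 CPM with LPS. Gm13391 was at 7.51 CPM with vehicle and 10.1 CPM with CCM. 1600010M07Rik was at 8.06 CPM with vehicle and 9.26 CPM with CCM. Gm28875 was at 16.97 CPM with vehicle, 21.5 CPM with CCM and 2.67 CPM with LPS. Tmem250-ps was at 49.8 CPM with vehicle, 47.1 CPM with CCM, 24.8 CPM with LPS and 35.4 CPM with both. Snhg6 was at 18.7 CPM with vehicle, 15.8 CPM with CCM and 21.1 CPM with LPS. Snhg12 was at 16.04 CPM with vehicle, 16.4 CPM with CCM and 7.77 CPM with LPS. Snhg20 was at 29.8 CPM with vehicle, 36.3 CPM with CCM, 15.5 CPM with LPS and 21.6 CPM with both. Epb41l4aos was at 30.9 CPM with vehicle, 41.4 CPM with CCM and 13.1 CPM with LPS. Mir142hg was at 19.2 CPM with vehicle, 23.9 CPM with CCM, 17.3 CPM with LPS and 13.9 CPM with both.

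Replicate 6 was lowest in others. 2900097C17Rik was at 102 CPM with vehicle, 71.1 CPM with CCM, 95.9 CPM with LPS and 124 CPM with both. Tug1 was at 27.6 CPM with vehicle, 32.4 CPM with CCM and 43.97 CPM with LPS. Brip1os was at 31.7 CPM with CCM. Gm47242 was at 1.94 CPM with LPS. Gm37494 was at 4.94 CPM with CCM.

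The 2 marks outside replicate 6 were Gm16015 in KO CCM replicate 1 (0.0525 CPM) and 2610035D17Rik in KO vehicle replicate 2 (4.01 CPM).

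The CCM effect of 4930430E12Rik was called different between LPS-treated and unstimulated WT cells, with an interaction of -0.41 on the log2 scale (edgeR, adjusted p = 0.038). This call was kept in 5 of 18 alternatives, with an adjusted p of 0.0055 to 0.99993. The level was lower with CCM in 3 of 3 same-numbered pairs in both states.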

How the results depend on the processing

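The members called kept within 1.5 times the main count in LPS in WT cells (98 to 101 with 1 library left out), and LPS in KO cells ranged from 72 to 117, the highest without KO replicate 6. Other comparisons moved. For CCM under LPS in WT cells 17 members were called with no count filter, 20 with the replicate block and 0 in the fit of all 36 libraries, and 4 to 11 with 1 library left out, the 4 without WT LPS replicate 2 and also without WT LPS+CCM replicate 2. In KO cells the same comparison gave 4 with the replicate block (Mir155hg at -0.79, adjusted p = 0.0032, Neat1 at 0.44, Gm17586 and Bvht), 1 with DESeq2, 1 in the fit of all libraries and 3 with the block and KO replicate 6 left out. CCM in unstimulated WT cells gave 1 with no filter. In unstimulated KO cells it gave 2 with the block, 3 with the block and without replicate 6, and 0 to 1 with a replicate left out, the 1 without replicate 6. The interaction in WT cells gave 2 with RLE factors, 5 with no filter, 2 with the block (4930430E12Rik and Neat1), 2 with DESeq2, 0 in the fit of all libraries, and 0 to 1 with 1 library left out. The genotype comparisons gave 0 with each replicate left out. The combination of the block with KO replicate 6 left out was chosen after seeing the data. With library totals alone 3 values of named members for LPS in WT cells changed sign, 2900097C17Rik (-0.37), Tug1 (-0.0098) and Snhg6 (-0.028), beside the shift of all genes, as did Dubr, a called member outside the naming rule. The causes were not tested. Of the named members' values that were called, 737 kept direction and call over the alternatives, 59 lost the call and 2 changed sign. A CPM minimum of 1 or 5 gave 287 or 54 members, and 50 overlapped no gene. Where same-numbered libraries were not paired by the check, the block is given here and, for CCM under LPS in KO cells, also in the Results. The block changed no call beyond those above by over 1.5 times in count. At a few counts a library, as in Mir155hg with vehicle, depth limits the fold changes.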
